A study of Arabidopsis thaliana with 12 samples.

Results

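The 5 nuclear genes of *Arabidopsis thaliana* described here, *PRK*, *SBPASE*, *NTRC*, *SRX* and *PRXIIE*, encode redox-regulated enzymes of carbon fixation or proteins of the plastid thiol system. They are 5 of the 691 genes that the platform annotation pairs with a probe of 1 gene, and each was read from 1 probe, found through its Arabidopsis locus. They were picked by function among genes whose difference between the mutant and the wild type was already known, so that difference is given for them as a description and without a test. The arrays compared the *stn8* mutant with the wild type (WT, ecotype Columbia 0), with 6 arrays each and total RNA as the sample. Groups rest on the sample titles alone. The source field disagrees with these titles for the 6 stn8 arrays, which it also labels as wild type of this ecotype. This conflict was not resolved. The allele of the mutant, the tissue, the age of the plants, their light regime and how many plants stand behind an array are not stated in the labels. P-values and standard errors (SE) therefore reflect the array-to-array spread alone, and this spread may be technical. Unless said otherwise, both treat the arrays as independent, although neighbouring arrays resembled each other, as described below.

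The Calvin-Benson cycle fixes carbon dioxide in the chloroplast stroma and then rebuilds its acceptor, ribulose bisphosphate. Several of its enzymes carry pairs of cysteines that are reduced in the light, by electrons that pass from photosystem I through ferredoxin and ferredoxin-thioredoxin reductase to thioredoxins, and are oxidised again in the dark. A parallel route uses NADPH and the reductase NTRC, which serves mainly the peroxiredoxins, enzymes that remove peroxides by means of a reactive cysteine. STN8 is a thylakoid protein kinase known for phosphorylating the core of photosystem II.

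The array held 3437 probes with values. The annotation paired 692 probes with 1 gene and 869 with several, and 1876 probes were not listed in it. The median intensity of an array was 0.330 to 0.349 in stn8 and 0.297 to 0.369 in WT, and 220 to 254 probes were at exactly 0 on a stn8 array, against 173 to 190 on a WT array. Each array resembled most the array next to it in number within its own group, so that arrays 1 and 2, arrays 3 and 4, and arrays 5 and 6 formed pairs. *STN8* and its relative *STN7* had no probe of their own, and neither had the 6 markers of seed, epidermis, root hair, phloem and guard cell, so neither the genotype nor the tissue was checked from these arrays. In such RNA from whole samples, fewer cells of a type and less RNA per cell cannot be told apart.

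All 5 genes were lower in stn8 than in WT, on every array of one group against every array of the other. By the ratio of mean deposited intensities they were 2.07-fold to 4.80-fold lower, with a median of 3.87-fold over the 5 genes. The order of the genes by size is not read, because *SBPASE* and *SRX* each had a stn8 array at 0. By the fitted log2 difference, given below, their place among the 5 changed with the treatment of low values. Over all 3437 probes, groups that did not overlap with stn8 below WT made up 27% and probes at least 2-fold lower in stn8 made up 21.6%, and since the genes were picked with this difference known, nothing is read from their count of 5 of 5. Intensities are on the linear scale of the deposited table, and levels of different genes are not compared, because each probe has its own response.

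*PRK*, phosphoribulokinase (AT1G32060), adds a phosphate from ATP to ribulose 5-phosphate and so completes the acceptor of carbon dioxide. It is held inactive in the dark by oxidation and by binding to the small protein CP12. Its intensity was 0.342, 0.401, 0.301, 0.349, 0.283 and 0.302 on stn8 arrays 1 to 6, against 1.35, 1.44, 1.04, 1.13, 1.13 and 1.67 on WT arrays 1 to 6. The stn8 arrays lay in a narrow band, and the lowest WT array was 2.59 times as bright as the highest stn8 array. The means were 0.330 ± 0.0434 in stn8 and 1.29 ± 0.239 in WT (SD, n = 6 each), which was 3.92-fold lower in stn8. The fitted difference, stn8 minus WT on the log2 scale after quantile normalization, was -2.10 ± 0.14 (SE). No spot within 4 spot numbers of the *PRK* probe averaged more than 1.39 in stn8 or 1.80 in WT. Spot numbers here and below are the probe numbers of the deposited values. Positions on the array were not used, so spots close in number need not lie side by side.

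*SBPASE*, sedoheptulose-bisphosphatase (AT3G55800), removes a phosphate from sedoheptulose bisphosphate in the regeneration branch of the cycle, a step that is irreversible in the cell. It was at 0.336, 0.370, 0.300, 0.364, 0 and 0.0805 on stn8 arrays 1 to 6, against 0.510, 0.570, 0.527, 0.639, 1.04 and 0.727 on WT arrays 1 to 6. In stn8 arrays 1 to 4 were close to one another and arrays 5 and 6 far below them, whereas in WT arrays 5 and 6 were the highest. The groups came nearer to each other than for *PRK*, with the lowest WT array 1.38 times the highest stn8 array. The means were 0.242 ± 0.160 in stn8 and 0.668 ± 0.197 in WT, a ratio of 2.76-fold lower in stn8.

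The fitted log2 difference of *SBPASE* depended on stn8 array 5. It was -3.21 ± 1.79 (SE) with the 0 of that array replaced by the array's smallest positive value, -1.37 without the array, and -1.41 with zeros treated as missing. Without arrays 5 and 6 of both groups it was -0.74. Of the 51 probes that were at 0 on 1 array only, 16 had their zero on stn8 array 5. The brightest of the spots within 4 spot numbers of the *SBPASE* probe averaged 7.78 in stn8 and 0.359 in WT, and another reached 6.49 in WT. Their part in the values was not tested.

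**Figure D1:**
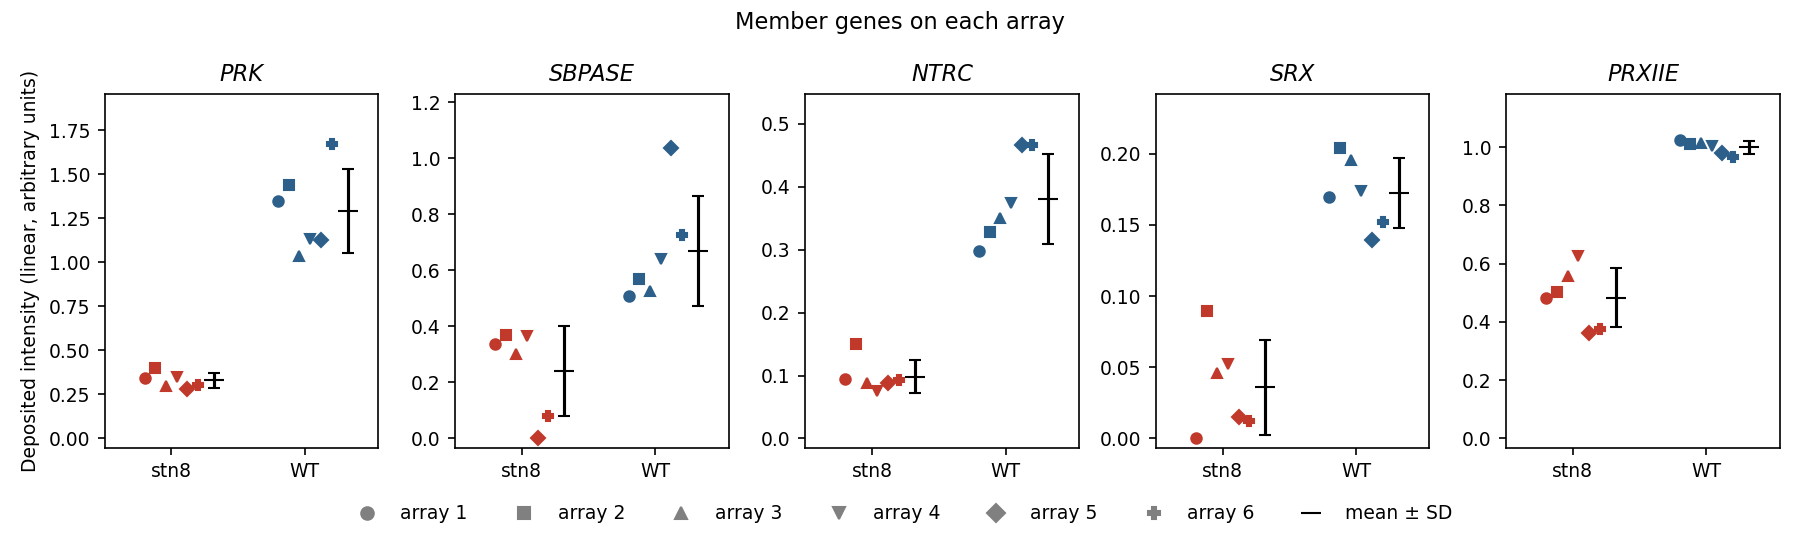
Deposited intensity (linear, arbitrary units, a separate scale for each gene) of the 5 genes on each stn8 array (red, left) and WT array (blue, right), with marker shapes for the array number and black bars for the mean ± SD of 6 arrays. No stn8 point reaches a WT point in any panel, and *SBPASE* and *SRX* each have 1 stn8 array at 0.

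*NTRC*, NADPH-dependent thioredoxin reductase C (AT2G41680), joins a reductase and a thioredoxin domain in a single protein and passes electrons from NADPH to the 2-Cys peroxiredoxins. It had intensities of 0.0945, 0.150, 0.0877, 0.0753, 0.0888 and 0.0927 on stn8 arrays 1 to 6, against 0.298, 0.328, 0.350, 0.374, 0.466 and 0.467 on WT arrays 1 to 6. The stn8 arrays lay within a narrow band except array 2, which stood above them, while in WT arrays 5 and 6 were nearly equal and the highest. The means were 0.0982 ± 0.0264 in stn8 and 0.381 ± 0.0710 in WT, which was 3.87-fold lower in stn8, with a fitted log2 difference of -1.80 ± 0.20 (SE). A spot within 4 spot numbers of this probe averaged 51.9 in stn8 and 10.6 in WT. Its part in the lower *NTRC* values was not tested.

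*SRX*, sulfiredoxin (AT1G31170), uses ATP to restore 2-Cys peroxiredoxins whose reactive cysteine has been over-oxidised to a sulphinic acid. Its probe was dim in stn8, at 0, 0.0896, 0.0457, 0.0525, 0.0152 and 0.0124 on arrays 1 to 6, against 0.170, 0.204, 0.195, 0.174, 0.139 and 0.152 on WT arrays 1 to 6. In stn8 array 1 was at 0 and its neighbour array 2 was the highest of the group, while arrays 3 and 4 were close to each other, as were arrays 5 and 6. The means were 0.0359 ± 0.0333 in stn8 and 0.172 ± 0.0246 in WT, 4.80-fold lower in stn8, where 1 array was at 0. The SD in stn8 was 92.6% of the mean, against 14.3% in WT.

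For such a dim probe the fitted value says little about size. The log2 difference of *SRX* was -3.11 ± 1.40 (SE), -3.98 ± 1.57 without normalization, -1.18 after a pseudocount of 0.05, and -1.64 without stn8 array 1. Of the 51 probes at 0 on 1 array only, 6 had it on stn8 array 1. The brightest spot within 4 spot numbers of *SRX* was that of *CCL*, at 3.76 in stn8 and 11.9 in WT, and so it was lower in stn8 as well.

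*PRXIIE* (AT3G52960) is a type II peroxiredoxin of the plastid stroma that reduces hydrogen peroxide and organic peroxides. It was at 0.481, 0.503, 0.557, 0.625, 0.361 and 0.375 on stn8 arrays 1 to 6, against 1.024, 1.012, 1.013, 1.005, 0.981 and 0.965 on WT arrays 1 to 6. In stn8 the values fell into 3 levels that followed the neighbouring arrays, with arrays 3 and 4 highest and arrays 5 and 6 lowest, while the WT arrays were almost equal. The means were 0.484 ± 0.103 in stn8 and 1.0 ± 0.0222 in WT, which was 2.07-fold lower in stn8, and the fitted log2 difference was -1.25 ± 0.12 (SE). No spot within 4 spot numbers averaged more than 0.575 in stn8 or 0.466 in WT.

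Against the whole array, the differences of the 5 genes lay in the lower tail but not at its end. The median fitted log2 difference of the 5 was -2.10, beside 0.00 over all 3437 probes and 0.08 over the 692 probes of 1 gene. A log2 difference lower than that of *PRK* was found for 7.01% of probes, and the share was 8.87% for *NTRC* and 14.98% for *PRXIIE*. For *SBPASE* the share was 3.29%, but 12.5% with zeros treated as missing and 6.14% with a pseudocount of 0.05, and for *SRX* it was 3.46%, 5.96% and 10.8%, so the place of these genes rests on how their zeros were treated. In the limma test with Benjamini-Hochberg adjustment, 70.4% of all probes passed an adjusted p of 0.05. Of all probes, 35.8% passed as lower and 34.7% as higher in stn8, so lower probes were common. In number, 2421 probes passed, against 2011 with neighbouring arrays averaged.

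**Figure D2:**
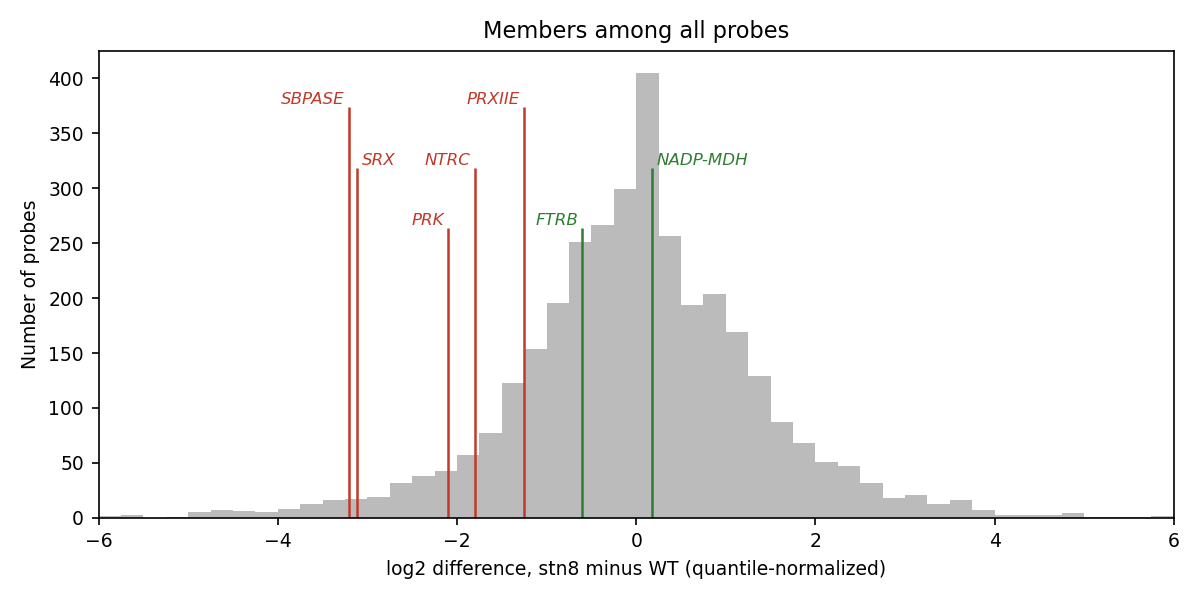
Histogram of the fitted log2 difference, stn8 minus WT, for all probes (grey, 62 probes beyond the axis not drawn), with vertical lines at the 5 genes (red) and at 2 further genes of the thioredoxin route (green). The 5 genes lie between -3.21 and -1.25, left of the centre of the distribution, and the lines of *SBPASE* and *SRX* depend on how a zero was treated.

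Since neighbouring arrays resembled each other and what the numbers stand for is not stated, the ratio was also taken within each pair of neighbours, arrays of the same numbers being set against each other. All 5 genes were lower in stn8 in all 3 pairs, which follows from groups that did not overlap and adds nothing to it. For each of the 5 genes the pair of arrays 5 and 6 had the lowest ratio of stn8 to WT. *PRK* was 3.75-fold lower in arrays 1 and 2, 3.34-fold in arrays 3 and 4, and 4.78-fold in arrays 5 and 6. *PRXIIE* was 2.07-fold, 1.71-fold and 2.64-fold lower in these pairs.

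*NTRC* was 2.56-fold lower in arrays 1 and 2, 4.44-fold in arrays 3 and 4 and 5.14-fold in arrays 5 and 6. *SRX* was 4.17-fold, 3.76-fold and 10.6-fold lower in the same pairs. *SBPASE* varied most, with 1.53-fold and 1.75-fold in the first pairs and 21.9-fold in arrays 5 and 6, where 1 of the stn8 arrays was at 0. Among the 679 probes at least 2-fold lower in stn8 with values in every pair, 37.0% had their lowest ratio in arrays 5 and 6, 37.4% in arrays 1 and 2, and 25.6% in arrays 3 and 4.

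**Figure D3:**
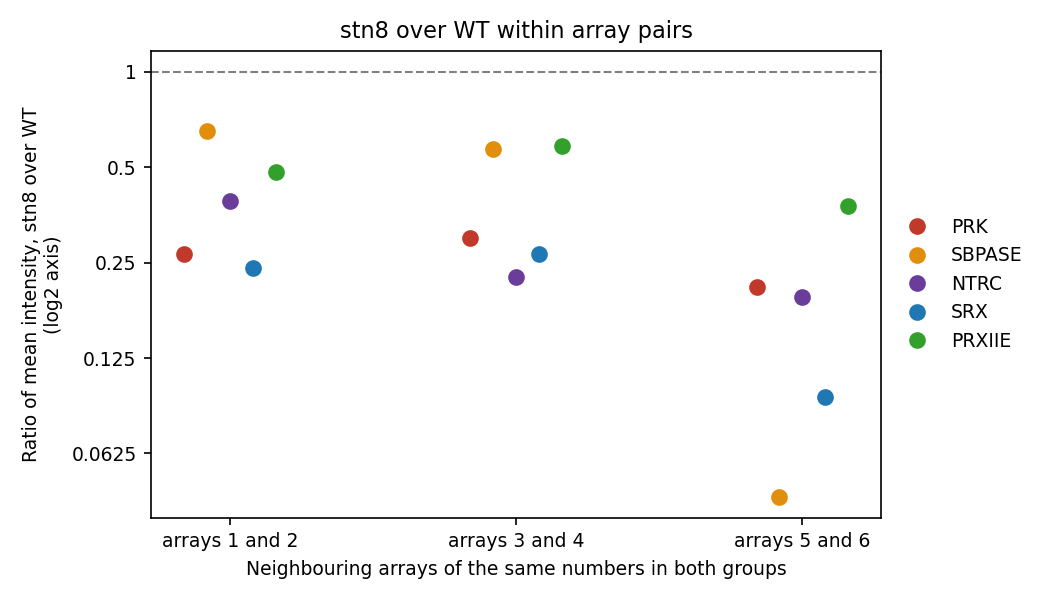
Ratio of mean deposited intensity, stn8 over WT (log2 axis), of the 5 genes within each pair of neighbouring arrays, 1 point for each gene and pair, with the dashed line at equal intensity. All points lie below the line, which follows from groups that did not overlap, and the lowest is *SBPASE* in arrays 5 and 6.

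Whether the neighbouring arrays of a pair were closer than the pairs were to each other differed between genes and groups. For *PRXIIE* the largest gap within a pair was 0.0685 against a range of 0.223 between pair means in stn8, and 0.0156 against 0.0447 in WT. For *SBPASE* it was 0.0805 against 0.313 in stn8, and 0.308 against 0.342 in WT. For *NTRC* the largest gap was 0.0560 against a range of 0.0410 in stn8, and 0.0296 against 0.153 in WT. *PRK* had a gap of 0.0588 against a range of 0.0791 in stn8, and a gap of 0.541, within arrays 5 and 6, against a range of 0.316 in WT. *SRX* had a gap of 0.0896, within arrays 1 and 2, against a range of 0.0353 in stn8, and 0.0340 against 0.0410 in WT. The pairing of neighbours thus held in 1 group and not in the other for *NTRC*, *PRK* and *SRX*.

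The processing moved the size of the difference most for the probes with a 0, *SBPASE* and *SRX*, and it kept the direction. Over the alternatives tried, *PRK* lay between -2.19 and -1.91 on the log2 scale and *PRXIIE* between -1.31 and -1.05, 1 array left out at a time included. *NTRC* lay between -2.02 and -1.43. *SBPASE* spanned -3.67 to -0.74 and *SRX* -4.03 to -1.18, so the log2 values of these probes are not measures of size.

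**Figure D4:**
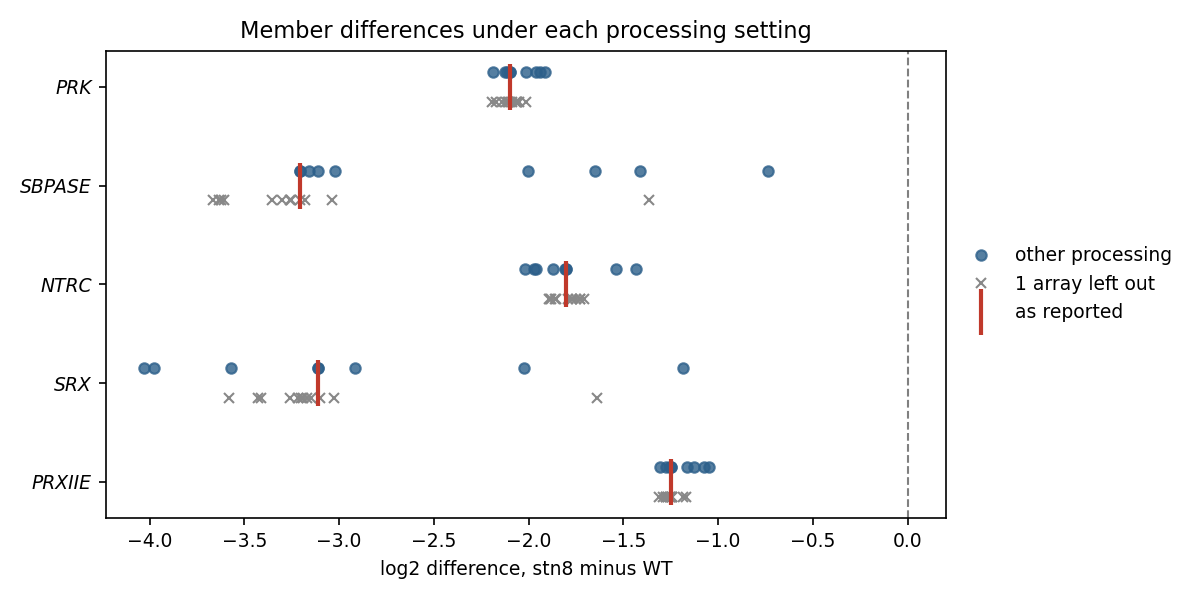
Log2 difference, stn8 minus WT, of each gene as reported (red bar), under other processing (blue points) and with 1 array left out at a time (grey crosses). All values lie below 0, where the sign could hardly change because the groups did not overlap, and those of *SBPASE* and *SRX* spread most widely.

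Genes whose profile over the arrays was most like that of each member were found by the mean absolute log2 difference between profiles, after each was centred on its own mean, among 615 to 618 other probes of 1 gene. For *PRK* the closest was *CCL* (AT3G26740), at 0.14 over 12 arrays beside a median of 1.13 over all candidates. *CCL*, whose transcript is known for its daily rhythm, averaged 3.76 in stn8 and 11.9 in WT. It was followed by AT5G19750 at 0.17 and AT2G46630 at 0.18.

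For *NTRC* the closest was *CML30* (AT2G15680), a calmodulin-like protein, at 0.23 beside a median of 0.99, with means of 0.629 in stn8 and 1.84 in WT. AT3G21810 and AT3G57630 came next, both at 0.24. For *PRXIIE* the closest were AT2G14660 at 0.13 (median 0.74), AT2G25640 and AT4G08630, both at 0.14. The likeness was weaker for the members with an array at 0, measured over their other 11 arrays. *SBPASE* was closest to AT2G31920, AT4G12740 and AT2G14660, all at 0.31 (median 0.81), and *SRX* to AT4G12740 at 0.27 and to AT4G34310 and AT5G19750, both at 0.31 (median 0.94). All these genes were lower in stn8, with fitted log2 differences from -2.14 to -1.09, and were picked for their likeness, so their direction follows from that choice.

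Beyond these 5 genes little of the pathway could be read. Of 111 genes on lists of the Calvin cycle, plastid and other thioredoxins, peroxide removal, thioredoxin-regulated enzymes and glutaredoxins, 7 had a probe of their own, 13 had only a probe shared with other genes, and the annotation used here listed none for 91. Of the 24 Calvin cycle genes only *PRK* and *SBPASE* had a probe of their own, and of the 19 genes of peroxide and superoxide removal only *SRX* and *PRXIIE* had one. The 2-Cys peroxiredoxins, which NTRC and SRX act on, had no probe of their own. The other genes with a probe of their own were *FTRB* and *NADP-MDH*, of which 1 fell and 1 rose, beside the 35.8% of probes called lower and 34.7% called higher.

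*FTRB* (AT2G04700) encodes the catalytic subunit of ferredoxin-thioredoxin reductase, which hands electrons from ferredoxin to the thioredoxins that activate PRK and SBPASE. It was at 0.646, 0.675, 0.639, 0.621, 0.736 and 0.692 on stn8 arrays 1 to 6, against 0.923, 0.830, 0.928, 0.854, 0.925 and 0.807 on WT arrays 1 to 6. The groups did not overlap, though the highest stn8 array came close to the lowest WT array, and in stn8 the highest arrays were 5 and 6. The means were 0.668 ± 0.0416 in stn8 and 0.878 ± 0.0541 in WT, 1.31-fold lower in stn8. The log2 difference was -0.60 ± 0.05 (SE, limma adjusted p = 9.45e-07), and -0.39 without normalization. *FTRB* was called lower under each alternative tried, with log2 differences from -0.64 to -0.39. With neighbouring arrays averaged, the limma adjusted p was weaker, at 0.00096.

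*NADP-MDH* (AT5G58330) is the chloroplast malate dehydrogenase that exports reducing power as malate and is switched on by thioredoxin. It was at 0.709, 0.730, 0.692, 0.669, 0.616 and 0.665 on stn8 arrays 1 to 6, against 0.531, 0.584, 0.580, 0.554, 0.447 and 0.523 on WT arrays 1 to 6. All stn8 arrays lay above all WT arrays, as for 28.6% of probes, and array 5 was the lowest in both groups. The means were 0.680 ± 0.0401 in stn8 and 0.536 ± 0.0503 in WT, 1.27-fold higher in stn8. The log2 difference was 0.17 ± 0.06 (SE, limma adjusted p = 0.0258).

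The call of *NADP-MDH* was not stable. It was lost with cyclic loess (adjusted p = 0.101), with zeros as missing (0.0847), with neighbouring arrays averaged (0.117), and when any of WT arrays 4 and 5 or stn8 arrays 1 and 2 was left out (0.0536 to 0.0575). The log2 difference was 0.35 without normalization (limma adjusted p = 0.0014). The brightest spot within 4 spot numbers of *NADP-MDH* averaged 7.02 in stn8 and 1.18 in WT. For *FTRB* it averaged 1.60 in stn8 and 0.480 in WT, and another spot reached 1.41 in WT.

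**Figure D5:**
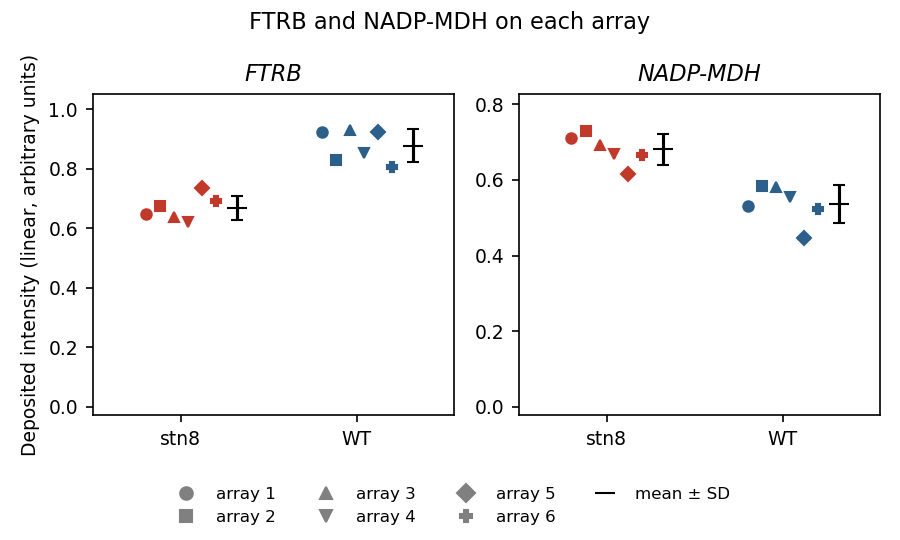
Deposited intensity (linear, arbitrary units) of *FTRB* and *NADP-MDH* on each stn8 array (red, left) and WT array (blue, right), with marker shapes for the array number and black bars for the mean ± SD of 6 arrays. *FTRB* is lower and *NADP-MDH* higher on all stn8 arrays than on any WT array.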

How the data were processed

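Arabidopsis total RNA was measured on 12 expression arrays, 6 stn8 and 6 WT by their titles. The intensity values were used as the authors deposited them. They are linear and never below 0, as read from the values. For array design, scanner, background correction and scaling, no details are given in the sources used here. Of 3439 rows, 2 held no value. Probe names came from the platform annotation, updated through the TAIR10.1 gene table (690 of 692 matched); no probe or protein sequences or coordinates were used.

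Zeros were set to the array's smallest positive value, log2 values were quantile normalized, and groups were compared with limma 3.58.1 (R 4.3.3; lmFit, eBayes, two-sided) over 3437 probes, with an adjusted p threshold of 0.05. The number of arrays limits the precision. The fit was tested on simulated data, but the outcome is not given here and nothing is read from it. Named were the 5 members, other listed genes with a probe of their own, and for each member the 3 genes of most similar profile. Members and lists were chosen with earlier results of these data known. Same-numbered arrays, numbered in the titles, deviated together from their group means (correlations of 0.17 to 0.33 in 6 pairs over 3079 probes above 0, all above the limit of 0.1). Arrays of different numbers, neighbouring numbers included, gave -0.28 to 0.29, with a median of -0.09, so the ranges overlapped. The WT array of the same number was the best match for all 6 stn8 arrays. Figures used matplotlib 3.10.9 under Python 3.11.15.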

Additional observations from a re-analysis of the deposited data

Results flagged for a closer look

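An array far from the others of its group was looked for among 14 sets of 6 values, those of the 5 members, *FTRB* and *NADP-MDH* in each group, and 1 stood out. *NTRC* was at 0.150 on stn8 array 2, and the next highest stn8 array was at 0.0945, a gap of 74.5% of the group's range by Dixon's ratio. Chance flags about 1 in 20 such sets. Without stn8 array 2 the log2 difference of *NTRC*, stn8 minus WT, was -1.89, against -1.80 with it.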

How the results depend on the processing

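The alternatives were no normalization, median centring, cyclic loess, a pseudocount of 0.05, zeros as missing, the dimmest 33.3% of probes left out, an intensity trend with robust variances, the number in the titles as a replicate block, neighbouring arrays averaged, each array left out in turn, and, chosen after seeing the data, arrays 5 and 6 of both groups left out together. All 104 values of the 5 members under them were below 0. The groups of the members did not overlap, so the sign could hardly change, and nothing is read from this count. The replicate block and the averaging of neighbouring arrays cannot change the log2 difference at all. Of the 104 values, 103 stayed within 1 SD of the reported value, by the SD of the normalized log2 values within the groups. For *SBPASE* and *SRX* this SD is wide because of their zeros, so this count is no measure of stability. The exception was *NTRC* with the pseudocount (-1.43). *SRX* was among the dimmest probes and had no value without them. With 1 array left out, the log2 difference lay between -2.19 and -2.01 for *PRK*, -3.67 and -1.37 for *SBPASE*, -1.89 and -1.71 for *NTRC*, -3.58 and -1.64 for *SRX*, and -1.31 and -1.17 for *PRXIIE*.

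Of the 2 other pathway genes called, 1 was called with cyclic loess, with zeros as missing and with neighbouring arrays averaged, and between 1 and 2 with 1 array left out. The probes called, 2421 in all, numbered 2477 with the replicate block, of which 2372 were shared. The block changed no call of *FTRB* (adjusted p = 2.98e-05) or *NADP-MDH* (adjusted p = 0.0086). The counts lay between 2342 and 2421 with 1 array left out, and were 2011 with neighbouring arrays averaged and 1866 of 2292 without the dimmest probes. Signal over background was not given, so how far it limits *SRX*, or *NTRC* with its stn8 mean of 0.0982, was not tested.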

Other observations

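The *PRXIIE* probe varied very little among the WT arrays. Its SD there was 2.22% of its mean of 1.0, beside a median of 16.3% over the 3079 probes above 0 on all arrays, and 1 other of these probes, which the annotation pairs with several genes, was as steady (2.14%). In stn8 the SD of *PRXIIE* was 21.2% of its mean, against a median of 11.6%, and 83.9% of the probes had an SD as small or smaller relative to the mean. The difference in spread between the groups was not tested.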
